A study of Mus musculus with 10 samples.

Results

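The genes described here code for voltage-gated sodium channels, voltage-gated calcium channels and the hyperpolarization-activated cyclic nucleotide-gated (HCN) channels of the mouse hippocampus. They were chosen by name alone: every gene name made of Scn, a number and the letter a or b, every name starting with Cacn, and the names of the Hcn family. This took 43 of the 24391 gene names in the count tables. They comprised 9 genes for the pore-forming subunit of sodium channels, 4 for sodium channel beta subunits, 7 for the pore of high-voltage-activated and 3 for that of low-voltage-activated calcium channels, 4 each for the alpha2delta and the beta subunits of calcium channels, 8 for gamma subunits and 4 for HCN channels. The gene for the sodium channel Nav1.2 is written Scn2a1 in these tables, so it fell outside the naming rule and is given only as a reference.

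Sodium channels open on depolarization and carry the upstroke of the action potential, with beta subunits that set their gating and placement in the membrane. Calcium channels turn depolarization into calcium entry, which releases transmitter at terminals, drives dendritic events and signals to the nucleus. HCN channels work the other way round: they open on hyperpolarization, pass a mixed cation current called Ih, and in hippocampal pyramidal neurons damp dendritic summation and shape the resting potential.

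Bilateral whole hippocampus was taken on day 4 from 10 male mice of 10 to 14 weeks, of the strain written C56BL/6J in the study's methods, with 1 library of ribosome-depleted total RNA for each mouse. In the 4 SAH mice (numbered 1 to 4) a filament pushed up the internal carotid artery on one side had punctured the circle of Willis, so that blood entered the subarachnoid space, and only mice with a large fall in cortical blood flow at puncture were kept. The 3 Sham mice (5 to 7) had the filament without the puncture and the 3 Naive mice (8 to 10) had no surgery. The labels give no drug treatment, and the operated mice were under isoflurane anesthesia. Sham and Naive mice together are called control, as the study pooled them. Both hippocampi of a mouse were 1 sample although the puncture was on one side, and p-values measure the spread between these individual mice.

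Counts on genes came to between 19743388 and 27254655 per mouse, of which the channel genes took 93164 to 125799, or 0.445 to 0.476%. No pair of libraries of a group was alike enough to be 1 library deposited more than once. SAH mouse 3 stood apart over the whole library, not only in these genes. A chi-square of the counts of 2 mice, per degree of freedom, was 15.3 to 19.3 for its pairs with the other SAH mice. Between the other SAH mice it was 4.28 to 10.7. Of the 38 channel genes that passed the filter on low counts, SAH mouse 3 was the highest of all 10 mice in 9 and the lowest in 7. No other mouse was at an end in more than 9. The same count was not made over all genes. SAH mouse 3 also had the highest summed level of 10 choroid plexus markers, at 1254 CPM (counts per 1000000 of the TMM-scaled library), against 108 to 883 in the other SAH mice, 62.9 to 851 in Sham and 52.1 to 74.5 in Naive mice. Values without it are given below beside the main genes concerned, Cacng3 and Cacng6 not among them. As a check of the tissue, 10 pan-neuronal markers summed to 9439 to 9813 CPM in SAH and 9421 to 10002 CPM in control mice and 0 of the 10 passed the test, and all 15 hippocampal neuron markers passed the filter.

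The HCN genes are much alike in the pore, so their sequences are shown before their counts. The stretches below hold 60 bases of coding sequence from exon 4 of the genes shown, read in the sense direction from mm9 (NCBIM37), and the capitals mark the codons of the glycine-tyrosine-glycine signature that lines the ion selectivity filter. They lie at chr10:79191674-79191733 (plus strand) for Hcn2, chr3:88954907-88954966 (minus) for Hcn3 and chr9:58703368-58703427 (plus) for Hcn4.
Hcn2: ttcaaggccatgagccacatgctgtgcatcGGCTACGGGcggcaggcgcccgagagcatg
Hcn3: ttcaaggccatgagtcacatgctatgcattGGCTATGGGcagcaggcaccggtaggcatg
Hcn4: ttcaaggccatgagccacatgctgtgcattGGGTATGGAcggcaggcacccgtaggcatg
Each gene spells the signature with a different set of codons. Over these 60 bases Hcn3 and Hcn4 were the most alike, with 54 identical bases (90%), and Hcn2 and Hcn3 the least, with 50 (83.3%). Hcn2 shared 52 bases (86.7%) with Hcn4. Even so, the longest run of bases that any pair of these genes had in common was 33, between Hcn2 and Hcn3, which is shorter than a 50-base read, and no 50-base window of an Hcn exon occurred in another channel gene.

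The sodium channel pores Scn1a, Scn2a1, Scn3a and Scn9a, which lie in 1 cluster on chromosome 2, were different. Of the 50-base windows in the exons of Scn1a, 6.38% also occurred in another of these genes, against 9.2% for Scn3a and 6.09% for Scn9a. The authors left out reads that aligned to several places, so the split of counts among these genes is uncertain to that extent. In all, 9 channel genes shared any such window. For Scn10a it was 2.63%, and for Cacna1g, Cacna1h, Cacna1i and Scn4a 0.294% or less. The exons of Cacna1d, Cacna1h and Scn9a overlap those of Chdh, Tpsg1 and Gm13629 on the opposite strand, and the authors' counting used the strand.

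Levels between genes were compared per length, as RPKM (the CPM value divided by the annotated exon length in kilobases), over all 10 mice. Channel transcripts spanned a very wide range: 21 of the 43 genes were above 10 RPKM, 31 were above 1 RPKM and 12 were below it. Among the genes named here, Cacng8 stood highest at 105 RPKM. After it came Cacng7 (91.7 RPKM), Scn3b (87.6 RPKM), Cacnb3 (72.0 RPKM), Scn2b (70.0 RPKM) and then Scn8a (41.1 RPKM). Auxiliary subunits of sodium channels, calcium channels or AMPA receptors thus came before any pore. Of the 42 pairs of neighbours in this order, 7 had ranges that did not overlap, among them Scn2b above Scn8a and Hcn2 (30.9 RPKM) above Cacnb4. In the other 35 pairs the ranges overlapped. The annotated exons of Cacng4, Cacng6, Cacng7 and Cacng8 sum to 984, 783, 828 and 774 bases. Those of Cacng4, Cacng6 and Cacng7 form 1 open reading frame from start to stop codon, so they are coding lengths, while those of Cacng8 do not. Levels per length of genes with and without annotated UTRs compare only roughly.

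**Figure D1:**
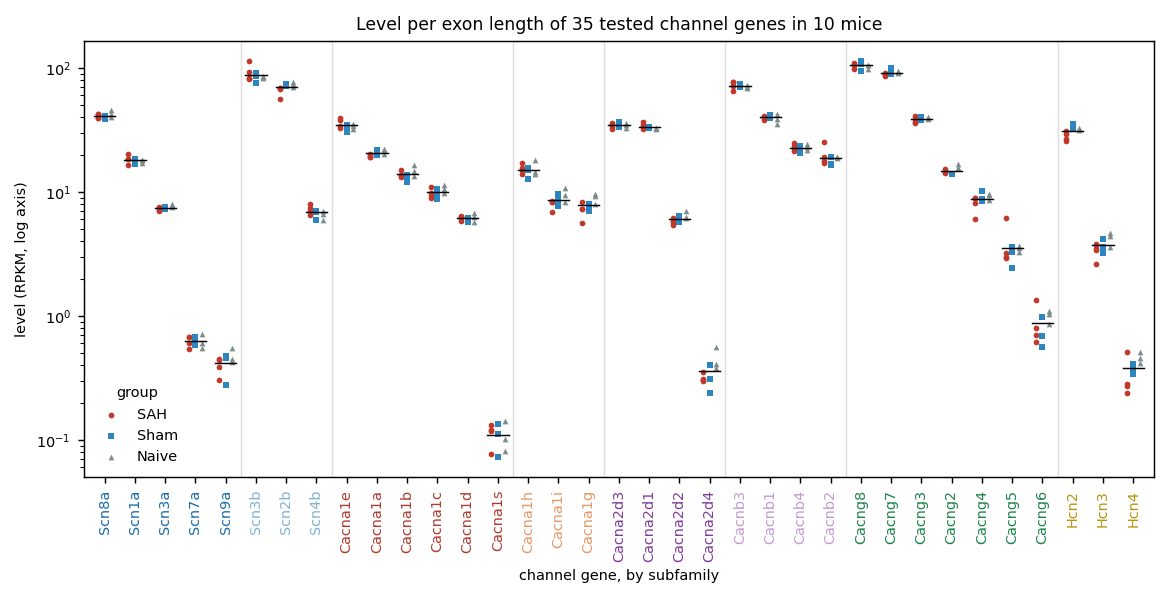
Level of 35 tested channel genes (RPKM, log axis) in every mouse, with genes ordered by subfamily and level; circles are SAH, squares Sham and triangles Naive mice, and the line is the mean of all 10 mice. The 3 groups overlap in nearly every column, and Cacng8 stands highest at 105 RPKM.

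Each subfamily had a leading gene in level per length. Among the sodium channel pores it was Scn8a, which codes for Nav1.6, the channel dense at the axon initial segment and nodes of Ranvier. It held 60.6% of the summed RPKM of the 9 genes, ahead of Scn1a (Nav1.1, prominent in parvalbumin interneurons). Scn2a1, had it been counted in, would have led this group at 51.6 ± 1.48 RPKM (SD, n = 10). Among the high-voltage calcium channel pores, Cacna1e (Cav2.3, the R-type channel) led at 34.4 RPKM with 40.5% of the sum, ahead of Cacna1a (Cav2.1, the P/Q-type channel of presynaptic terminals). Cacna1h (Cav3.2) held 48.0% of the sum of the low-voltage, T-type pores. Cacna2d3 and Cacna2d1, at 34.4 and 33.5 RPKM, led the alpha2delta subunits, which carry the pore to the surface, and Cacnb3 led the intracellular beta subunits with 46.8% of their sum. Cacng8 and Cacng7 led the gamma family, most of whose members in brain act as auxiliary subunits of AMPA receptors (TARPs) rather than of calcium channels. Hcn2 held 60.9% of the summed RPKM of the HCN genes.

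At the low end, 5 genes failed the filter, with few counts in any mouse. Scn4a and Cacna1f, known from skeletal muscle and retina, had 0 to 7 counts per mouse. Cacng1, a subunit of the skeletal muscle channel, had 0 to 4 counts, and was at 0 in 7 of the 10 mice. The channels of sensory ganglia, Scn10a and Scn11a, had 0 to 1 and 0 to 2 counts, and were at 0 in 7 and 6 mice. With 0 counts, a true level of up to 3 counts remains possible, a limit that covers counting error only. Among the genes that passed, Cacna1s (the skeletal muscle L-type pore) and Cacng6 had at most 21 and 23 counts in a mouse, so their fold changes are loosely bounded.

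SAH and control mice were then compared by edgeR's quasi-likelihood test over 14993 genes, calling a gene when its p, adjusted by Benjamini-Hochberg, was under 0.10. Channel transcripts differed little between the groups. Of the 38 tested, 1 was called, Hcn2, which was lower in SAH, and 0 were called higher. Among all genes tested 4.68% were called, 3.13% higher and 1.54% lower, so that 1 lower call of 38 is close to that background. Without adjustment, 4 of the 38 had p under 0.05 (17% of all genes did): Hcn2, Scn2b and Cacna1a with lower and Cacna1e with higher values in SAH. DESeq2 also called Hcn2 lower (adjusted p = 0.0125) and 0 higher, against 6.42% of all genes called by that tool.

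The estimates were small throughout. The log2 fold changes ran from −0.33 for Hcn4 to 0.20 for Cacng5, with a median of −0.023 (−0.0024 over all genes), and 24 of the 38 (63.2%) were below 0, where 50.9% of all genes were. The median was 0.0024 with the choroid plexus covariate and −0.012 without Naive mouse 9, the values without 1 mouse running from −0.044 to −0.012. The median size without regard to sign was 0.074, against 0.081 over all genes. For 31 genes (81.6%) the 95% interval of the log2 fold change lay wholly within ±0.5, and for 21 (55.3%) within ±0.25, compared with 77.6% and 48.9% of all genes. Among the 7 genes with wider intervals were Hcn4, Cacna2d4, Scn9a, Cacna1s, Cacng5 and Cacng6, none of which was above 23.7 CPM in any mouse. Every SAH mouse lay beyond every control mouse for 2 channel genes, Hcn2 and Scn2b, both lower, where 5.2% of all genes tested were separated in this way.

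**Figure D2:**
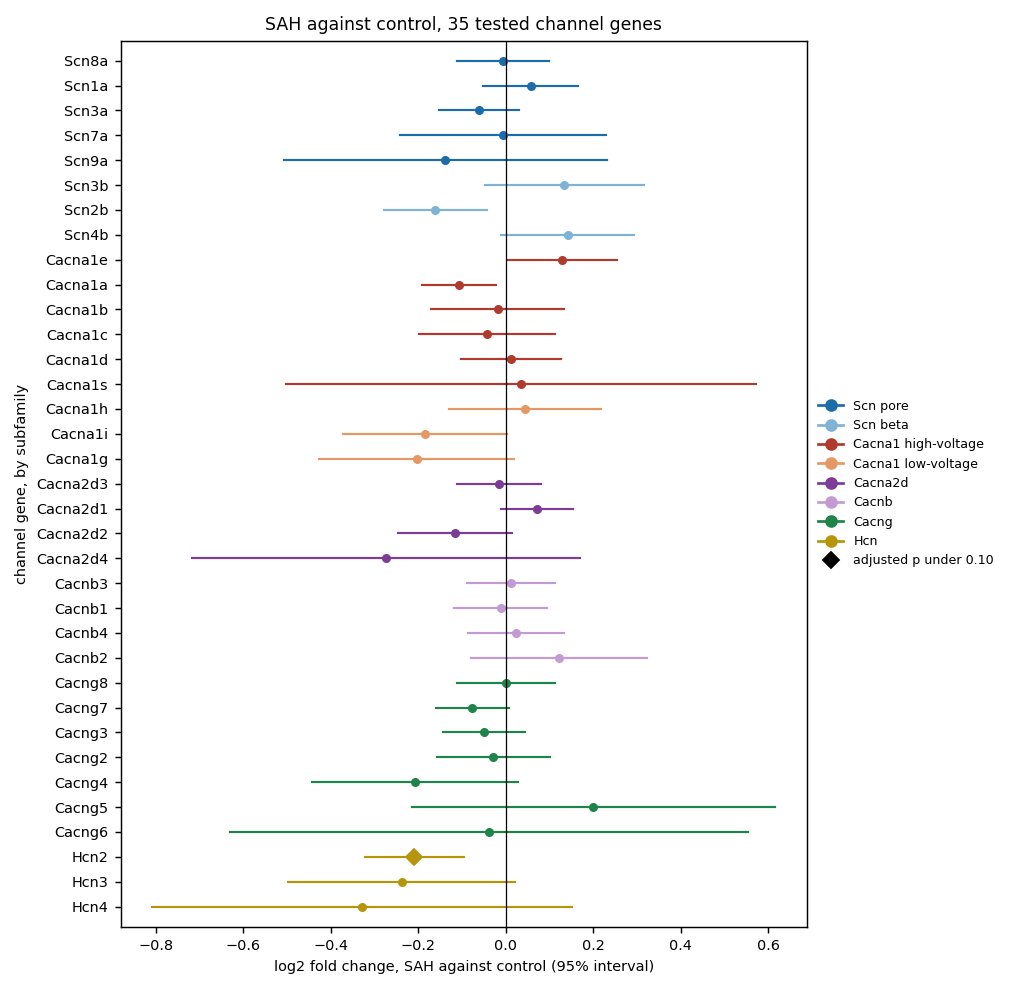
Log2 fold change of SAH against control for 35 tested channel genes, with 95% intervals, coloured by subfamily; the diamond marks the gene with an adjusted p under 0.10. Hcn2 lies at −0.21 with an interval that stays below 0, and all points lie between −0.33 and 0.20.

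Hcn2 codes for the HCN subunit that is broadly expressed in brain and responds strongly to cyclic AMP, and lies at chr10:79179379-79198853 (plus strand). Its levels in the SAH mice were 98.5, 94.1, 85.4 and 82.5 CPM for mice 1 to 4. In Sham mice they were 102, 113 and 103 CPM, and in Naive mice 101, 103 and 104 CPM. All 4 SAH mice were below all 6 control mice, with SAH mouse 1 close to the lowest Naive mouse and SAH mice 3 and 4 furthest down. The means were 90.1 ± 7.43 CPM (SD, n = 4) and 104 ± 4.18 CPM (SD, n = 6), a fall by 13.5% (log2 fold change −0.21, 95% interval −0.32 to −0.096, edgeR adjusted p = 0.0528). In bulk tissue, fewer cells of a type and less RNA per cell cannot be told apart.

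The call of Hcn2 was lost without any of 4 single mice, while its direction did not change in any setting run. Its log2 fold change was −0.18 without SAH mouse 3 (adjusted p = 0.103), −0.17 without SAH mouse 4 (adjusted p = 0.162), −0.21 without Naive mouse 10 (adjusted p = 0.106) and −0.19 without Sham mouse 6 (adjusted p = 0.102), against −0.21 with all mice. The adjusted p was 0.371 with the choroid plexus score of each mouse as a covariate (log2 fold change −0.15). SAH mice 3 and 4, the lowest in Hcn2, had 1254 and 883 CPM of choroid plexus markers in sum. Sham mouse 7, with 851 CPM, had 103 CPM of Hcn2. The mature oligodendrocyte markers also moved with SAH: 11 of 12 were called lower, and their sum was 5080 to 6458 CPM in SAH against 7453 to 10287 CPM in control mice. Of 10 interneuron markers 1 was called lower, Sst, where 1.54% of all genes tested were. Sst averaged 187 CPM in SAH and 225 CPM in control mice. Gad1 (359 and 342 CPM) and Vip (19.6 and 17.5 CPM) had higher means in SAH, and the rest of the list had lower means. The sum of the list was 1091 to 1183 CPM in SAH and 1169 to 1268 CPM in control mice, with overlap. Some markers of other cells moved the other way: 9 of 10 meningeal fibroblast, 6 of 10 microglia, 4 of 10 endothelial, 3 of 10 mural cell and 2 of 10 astrocyte markers were called higher. Among all genes tested 3.13% were called higher. Other markers of these lists did not rise: the microglia markers Cx3cr1 and P2ry12 averaged 52.3 and 44.0 CPM in SAH and 54.7 and 45.4 CPM in control mice. The astrocyte marker Slc1a2 averaged 3523 CPM in SAH and 3609 CPM in control mice, while Gfap averaged 812 and 405 CPM. The meningeal fibroblast markers summed to 207 to 415 CPM in SAH and 146 to 194 CPM in control mice, and the microglia markers to 515 to 651 and 462 to 526 CPM. Of 10 immediate early genes, 9 were called lower, with sums of 381 to 603 CPM in SAH and 767 to 1094 CPM in control mice. Apart from the fit with the choroid plexus covariate, the part of these cell types and genes in the level of Hcn2 was not tested.

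The other HCN genes were not called. Hcn3, a subunit that does not respond to cyclic AMP, had 11.5, 12.4, 8.54 and 11.2 CPM in SAH, 13.7, 10.5 and 11.8 CPM in Sham and 14.4, 15.3 and 11.7 CPM in Naive mice. SAH mouse 3 was the lowest, and the log2 fold change of −0.24 (95% interval −0.50 to 0.022, edgeR adjusted p = 0.342) became −0.14 without it. Hcn4, the pacemaker subunit of the sinus node and thalamus, had 0.909 to 1.95 CPM in SAH and 1.29 to 1.96 CPM in control mice, from 18 to 53 counts a mouse. SAH mouse 2 alone kept a level near the top of the controls. Without it the log2 fold change of Hcn4 went from −0.33 (adjusted p = 0.479) to −0.65 (adjusted p = 0.089), past the threshold.

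Among the sodium channel beta subunits, which are also cell adhesion molecules, the estimates went both ways, with 0 of 4 called. Scn2b, at chr9:44925959-44938153 (plus strand), had 318, 312, 257 and 307 CPM in SAH mice 1 to 4. Sham mice had 336, 324 and 328 CPM and Naive mice 322, 352 and 339 CPM. The SAH mice were all below the controls, mouse 1 by a narrow margin and mouse 3 by the widest. The log2 fold change was −0.16 (95% interval −0.28 to −0.044, edgeR adjusted p = 0.149). It was −0.094 without SAH mouse 3 (adjusted p = 0.287) and −0.19 without SAH mouse 1, when it passed the threshold (adjusted p = 0.0976). With the choroid plexus covariate it was −0.11 (adjusted p = 0.694). Scn2b and Scn4b lie side by side on chromosome 9, and Scn4b, the subunit linked to resurgent sodium current, had a log2 fold change of 0.14 (95% interval −0.0099 to 0.29, adjusted p = 0.332). Its levels were 29.9, 27.7, 34.1 and 31.3 CPM in SAH against 25.2 to 29.7 CPM in control mice, so that 3 of 4 SAH mice were above all controls. Without SAH mouse 3, the highest, the log2 fold change of Scn4b was 0.093. Over the settings other than single mice left out it ran from 0.069 to 0.16.

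Scn3b had 343, 349, 487 and 391 CPM in SAH mice 1 to 4, where the control mice lay between 319 and 384 CPM. SAH mouse 3 carried most of the difference: the log2 fold change of 0.13 (edgeR adjusted p = 0.446) was 0.016 without it.

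The sodium channel pores showed no called difference in 6 tested genes. Scn8a averaged 469 ± 18.1 CPM in SAH mice (SD, n = 4) and 471 ± 31.0 CPM in the controls (SD, n = 6), a log2 fold change of −0.0061 with a 95% interval of −0.11 to 0.098 (edgeR adjusted p = 0.963). Scn1a averaged 152 ± 12.4 CPM (SD, n = 4) and 146 ± 5.23 CPM (SD, n = 6), with an interval from −0.051 to 0.16 (adjusted p = 0.594). The log2 fold change of Scn1a, 0.057, was 0.012 without SAH mouse 3 and 0.11 without SAH mouse 2. Scn2a1, outside the naming rule, had a log2 fold change of −0.0077 with an interval from −0.083 to 0.067. The intervals of these main pores of hippocampal neurons all lay within ±0.25. That of Scn9a, a channel of peripheral neurons with 2.74 to 5.43 CPM over all mice, reached beyond −0.5, so a lower level of that size lay inside the interval.

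The calcium channel pores had 0 called among 6 high-voltage and 3 low-voltage genes. Cacna1a, at chr8:86939263-87164148 (plus strand), had 151, 157, 160.1 and 152 CPM in SAH mice 1 to 4. It had 159, 173 and 163 CPM in Sham and 175, 172 and 160.3 CPM in Naive mice. Only Sham mouse 5 was inside the range of the SAH mice, and the log2 fold change was −0.11 (95% interval −0.19 to −0.021, edgeR adjusted p = 0.189). This is a difference of 7.11% in level, with the 4 SAH mice close together.

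Cacna1e, at chr1:156239649-156573050 (minus strand), had 418, 434, 503 and 487 CPM in SAH mice 1 to 4, 407, 438 and 385 CPM in Sham and 435, 450 and 411 CPM in Naive mice. SAH mice 3 and 4 were above all controls, and mice 1 and 2 within their range. The log2 fold change was 0.13 (95% interval 0.0049 to 0.25, edgeR adjusted p = 0.274), and 0.086 without SAH mouse 3. The L-type pores Cacna1c and Cacna1d and the N-type pore Cacna1b had log2 fold changes of −0.042, 0.012 and −0.018. Their 95% intervals lay within ±0.25.

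Of the T-type pores, which open near rest and support burst firing, Cacna1g (Cav3.1) had 59.8, 68.8, 46.5 and 59.6 CPM in SAH mice 1 to 4, 66.2, 62.1 and 57.3 CPM in Sham and 78.9, 76.0 and 65.9 CPM in Naive mice. Sham mice were nearer to the SAH than to the Naive mice, and SAH mouse 3 was the lowest (log2 fold change −0.20, 95% interval −0.43 to 0.020, edgeR adjusted p = 0.343). It was −0.11 without that mouse and −0.069 with the choroid plexus covariate. Cacna1i (Cav3.3) had 80.9, 83.0, 67.4 and 81.5 CPM in SAH and 75.4 to 106 CPM in control mice (log2 fold change −0.18, adjusted p = 0.302). Its lowest value was again that of SAH mouse 3, and the log2 fold change was −0.12 without that mouse and −0.083 with the choroid plexus covariate. Cacna1h, the most abundant of the T-type pores per length, averaged 127 ± 10.2 CPM in SAH mice (SD, n = 4) and 123 ± 14.7 CPM in the controls (SD, n = 6) (log2 fold change 0.044, adjusted p = 0.811). The groups overlapped in both.

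**Figure D3:**
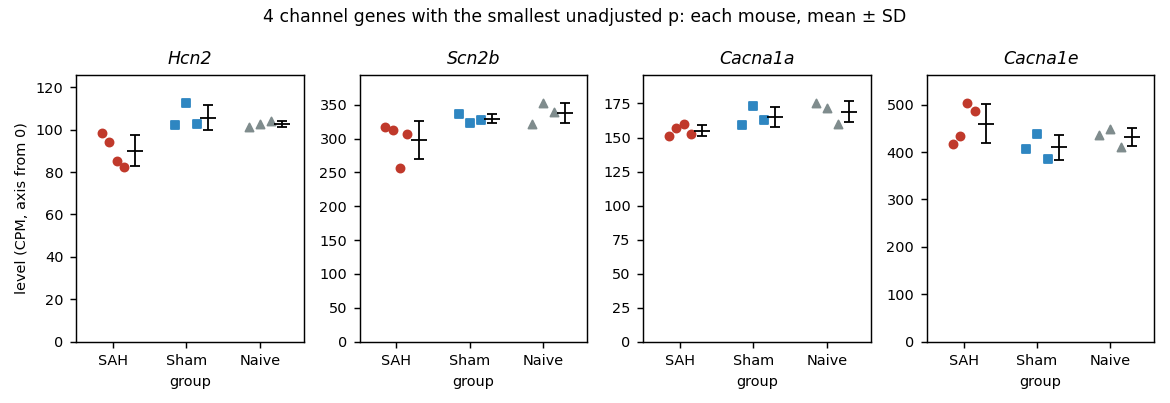
Levels (CPM, axes from 0) of the 4 channel genes with the smallest unadjusted p for SAH against control, 1 point per mouse, with mean ± SD of each group beside the points. Hcn2 and Scn2b are the genes whose 4 SAH mice all lie below the 6 control mice, and SAH mouse 3 of Scn2b, at 257 CPM, is the lowest point of that panel.

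The auxiliary subunits of calcium channels had 0 called of 4 alpha2delta, 4 beta and 7 gamma genes tested. Cacna2d1, a binding site of gabapentin, had 261, 242, 276 and 255 CPM in SAH mice and stayed within 240.3 and 249.5 CPM in all 6 controls. Its 3 SAH mice above the controls and 1 within gave a log2 fold change of 0.072 (95% interval −0.0098 to 0.15, edgeR adjusted p = 0.36), and 0.041 without SAH mouse 3, the highest. Cacna2d2, another gabapentin-binding subunit, averaged 32.0 ± 1.72 CPM in SAH mice (SD, n = 4) and 34.7 ± 2.50 CPM in the controls (SD, n = 6), with overlap (log2 fold change −0.12, adjusted p = 0.36). Its log2 fold change was −0.057 against Sham and −0.17 against Naive mice. Cacna2d3 averaged 126 ± 5.95 CPM in SAH mice (SD, n = 4) and 128 ± 5.97 CPM in the controls (SD, n = 6) (adjusted p = 0.893).

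Of the beta subunits, Cacnb3 averaged 218 ± 17.0 CPM in SAH mice (SD, n = 4) and 216 ± 5.50 CPM in the controls (SD, n = 6), and Cacnb1 153 ± 4.84 and 154 ± 10.1 CPM. Their 95% intervals on the log2 scale lay between −0.12 and 0.11. SAH mouse 3 was the lowest in Cacnb3, whose log2 fold change of 0.012 was 0.064 without it. Cacnb2 had 76.5, 79.0, 113 and 85.9 CPM in SAH mice 1 to 4 and 73.1 to 86.0 CPM in control. Only SAH mouse 3 was clearly outside the controls, and its log2 fold change of 0.12 (adjusted p = 0.536) became −0.013 without that mouse.

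In the gamma family, Cacng7 had 73.0, 71.9, 75.5 and 73.7 CPM in SAH, 74.0, 82.3 and 76.8 CPM in Sham and 76.1, 78.8 and 77.0 CPM in Naive mice, with 1 Sham mouse inside the SAH range (log2 fold change −0.076, 95% interval −0.16 to 0.0079, edgeR adjusted p = 0.348). Cacng8, a TARP of hippocampal pyramidal cells, averaged 81.2 ± 3.33 CPM in SAH mice (SD, n = 4) and 81.1 ± 5.31 CPM in the controls (SD, n = 6). Cacng5 had 11.4, 12.3, 23.7 and 11.2 CPM in SAH mice 1 to 4, where the controls averaged 12.7 ± 1.77 CPM (SD, n = 6). SAH mouse 3 alone was high, and without it the log2 fold change went from 0.20 to −0.12.

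**Figure D4:**
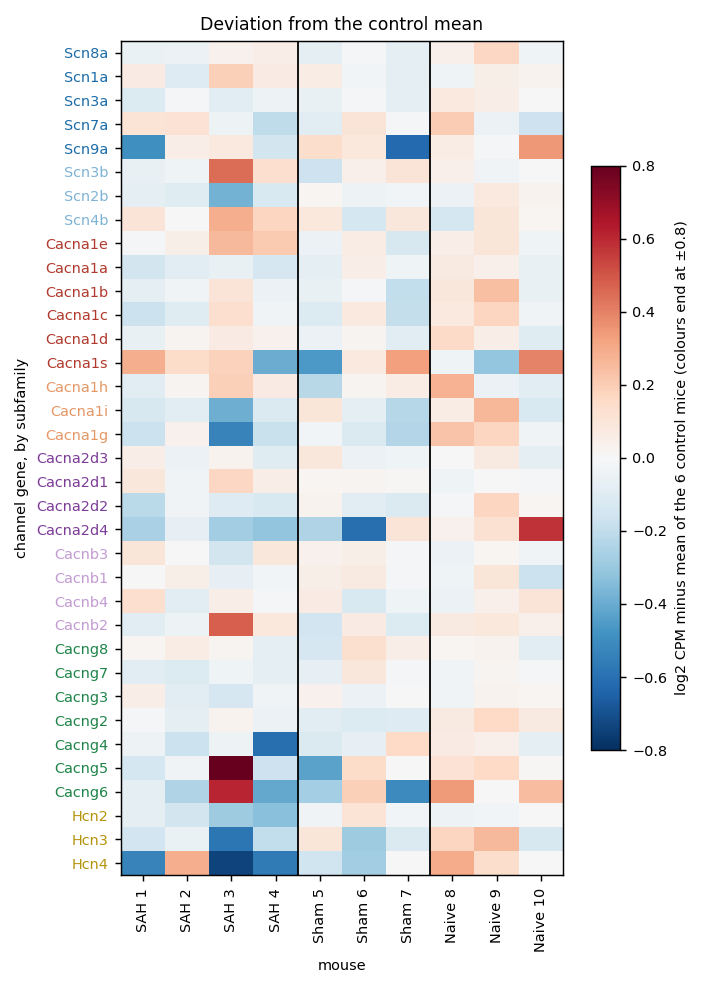
Deviation of 35 tested channel genes in each mouse from the mean of the 6 control mice (log2 CPM), red above and blue below; black lines separate SAH, Sham and Naive mice. The column of SAH mouse 3 has many of the deepest colours, as in Cacng5 at 23.7 CPM, and the row of Hcn2 is blue in all 4 SAH mice.

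Genes in which SAH mouse 3 was highest of the 10 mice included Cacna1e, Cacna2d1, Cacnb2, Cacng5, Cacng6, Scn1a, Scn3b and Scn4b. It was lowest in Cacna1g, Cacna1i, Cacnb3, Cacng3, Hcn3, Hcn4 and Scn2b. Its median deviation from the control mean, regardless of sign, was 0.143 on the log2 scale, against 0.0544 to 0.106 in the other SAH mice. The median log2 fold change of −0.044 given above was the one without this mouse. Of the genes named above with estimates near 0, Cacng8 was then at −0.0020, Cacnb1 at 0.0090, Cacna1h at −0.0036, Scn8a at −0.017 and Cacna2d3 at −0.027 on the log2 scale. Hcn4 was at −0.21, Scn3b at 0.016 and Scn4b at 0.093. In its other cell type markers, SAH mouse 3 had the highest sum of 15 hippocampal neuron markers, at 1738 CPM against 1597 to 1662 CPM in the other SAH mice and 1449 to 1648 CPM in control mice. Of these 15 markers 1, C1ql2, was called higher in SAH. The mouse also had the highest sum of 10 astrocyte markers, at 7746 CPM against 6226 to 6988 CPM in the other SAH mice and 6235 to 6701 CPM in control mice. Its sums of oligodendrocyte precursor markers (374 CPM) and of immediate early genes (381 CPM) were the lowest of the 10 mice. The part of these differences in the channel genes was not tested.

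The pairwise comparisons, from a fit of the 3 groups together, addressed the puncture (SAH against Sham), puncture with surgery (SAH against Naive) and surgery with its anesthesia (Sham against Naive). They share mice with each other and with the comparison above. By edgeR's quasi-likelihood test 0 of 38 channel genes were called in any of them, where 0.72%, 2.99% and 0.00661% of 15134 genes were. At an unadjusted p under 0.05 there were 2, 10 and 3 of the 38, against 9.69%, 14.8% and 2.02% of all genes. DESeq2 called 1, 1 and 0, where it called 1.91%, 4.56% and 0.0102% of the genes it tested. The DESeq2 calls were Hcn2, lower in SAH than in Sham (adjusted p = 0.0801), and Cacna1g, lower in SAH than in Naive (adjusted p = 0.099).

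For Hcn2 the log2 fold change was −0.23 against Sham (95% interval −0.37 to −0.093, edgeR adjusted p = 0.188) and −0.19 against Naive (−0.33 to −0.050, adjusted p = 0.18). Between Sham and Naive it was 0.042 (−0.10 to 0.19). For Cacna1g the corresponding values were −0.074 against Sham, −0.32 against Naive (−0.56 to −0.089, adjusted p = 0.176) and −0.25 between Sham and Naive (−0.50 to 0.0018). In Hcn2 the Sham and Naive mice thus had nearly the same level, whereas in Cacna1g the Sham mean of 61.9 CPM lay between the means of SAH (58.7 CPM) and Naive mice (73.6 CPM), with all 3 Sham mice inside the SAH range.

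The 10 genes with an unadjusted p under 0.05 against Naive had lower values in SAH, a combination found in 7.06% of all genes tested. They were Hcn2, Hcn3, Scn2b, Scn3a, Cacna1a, Cacna1g, Cacna1i, Cacna2d2, Cacna2d4 and Cacng2. The adjusted p of each was 0.176 or more, so none of these is a called difference. Sham mice, set against the same Naive mice, also had estimates below 0 in these genes, Hcn2 excepted. The genes were picked for low values against those Naive mice, which favours estimates below 0 for Sham as well. For Cacna2d4 the log2 fold change was −0.51 for SAH against Naive, −0.50 for Sham against Naive and −0.0043 for SAH against Sham. Over the 38 channel genes the median log2 fold change was −0.0074 against Sham, −0.041 against Naive and −0.064 between Sham and Naive, with 21, 26 and 28 genes below 0 (55.3%, 68.4% and 73.7%, where 50.7%, 50.0% and 50.8% of all genes were). The lean to lower values against Naive was present in Sham as well as in SAH mice. Both comparisons use the same Naive mice, so they are not 2 separate observations of it. Without Naive mouse 10 the median was −0.090 for SAH against Naive and −0.087 for Sham against Naive. Without Naive mouse 9 these medians were −0.048 and −0.039. Cacng2, the gene of stargazin, was the channel gene with the smallest unadjusted p between Sham and Naive mice, at rank 14 of the 15134 genes tested. It had 40.6, 40.0 and 40.1 CPM in Sham and 45.4, 48.2 and 45.3 CPM in Naive mice, without overlap (log2 fold change −0.20, 95% interval −0.32 to −0.082, adjusted p = 1.00). The SAH mice, with 42.9, 41.0, 44.1 and 41.7 CPM, lay between the other groups.

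**Figure D5:**
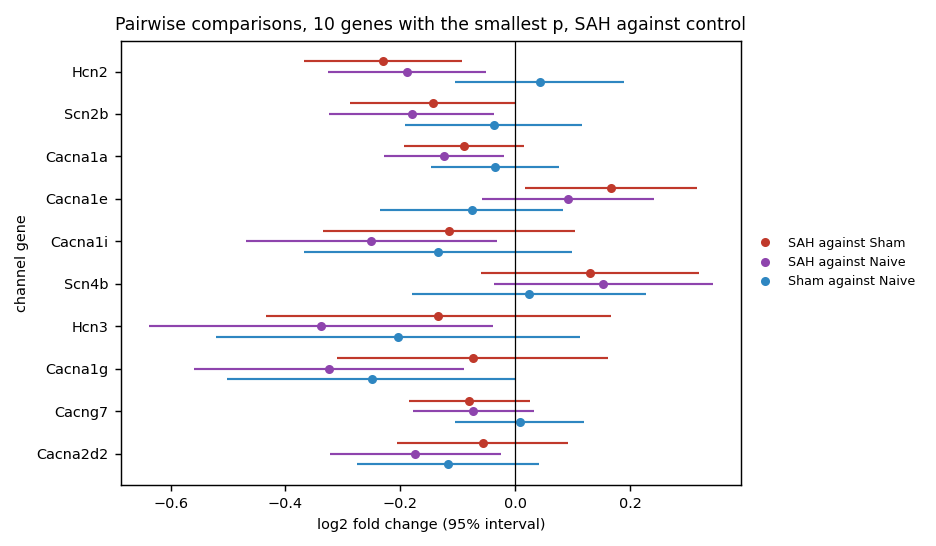
Log2 fold changes with 95% intervals in the 3 pairwise comparisons, for the 10 channel genes with the smallest unadjusted p in SAH against control. Hcn2 lies at −0.23 against Sham, −0.19 against Naive and 0.042 between Sham and Naive, while Cacna1g lies at −0.074, −0.32 and −0.25.

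The genes whose products bind or work beside these channels were counted from lists named by function, and their counts are to be read against the 4.68% of all genes called (3.13% higher, 1.54% lower). Of 15 tested sodium channel partners 1 was called, Nfasc, lower in SAH. Neurofascin anchors channels at axon initial segments and nodes and has a glial form at the paranodal junction of myelin. Its levels were 287, 297, 299 and 322 CPM in SAH mice, 342, 331 and 361 CPM in Sham and 414, 422 and 372 CPM in Naive mice. All SAH mice were below all controls (log2 fold change −0.31, 95% interval −0.46 to −0.17, edgeR adjusted p = 0.0248). As given above, 11 of 12 mature oligodendrocyte markers were called lower in the same mice, and their part in the level of Nfasc was not tested.

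Of 9 intracellular calcium channel genes 1 was called, Itpr3, an inositol trisphosphate receptor most abundant outside neurons. It had 3.53, 4.23, 8.49 and 6.84 CPM in SAH mice 1 to 4, and 1.57 to 3.39 CPM in control mice. All SAH mice were above the controls, mouse 1 barely so (log2 fold change 1.10, 95% interval 0.57 to 1.64, edgeR adjusted p = 0.0306). The level was highest in SAH mice 3 and 4, which also had the highest choroid plexus sums, whereas Sham mouse 7, with 851 CPM of those markers, had 2.74 CPM of Itpr3. The part of that tissue was not tested. In the remaining lists 0 genes were called: 3 tested sodium channels outside the naming rule, 4 genes of the NALCN leak channel complex, 16 calcium channel partners, 6 HCN channel partners, and 12 AMPA receptor subunits and partners.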

How the data were processed

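Libraries from 4 SAH, 3 Sham and 3 Naive mice were analysed, 1 per mouse. The authors aligned 50-base read pairs to mm9 with STAR and used featureCounts 1.6.2 by strand to count pairs on exons of 1 gene. The authors deposited these counts unnormalized. Of 2523 exons of the channel genes, 95.7% had both ends equal to the reference annotation (GENCODE vM1), whose genome gave the sequences.

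Counts were tested here with edgeR 4.0.16 in R 4.3.3 (TMM normalization, filterByExpr with minimum count 10 and minimum total count 15, quasi-likelihood test) on all genes, with Benjamini-Hochberg adjustment over all genes tested and a threshold of 0.10. Log2 fold changes are from that fit, CPM used TMM-scaled library sizes, RPKM also divided by the exon length in the tables, and deviations used a prior count of 2. The script was tested on simulated data. Alternatives were DESeq2 1.42.0 (the authors' tool), its size factors or library size alone, the filter dropped or raised to 10 counts in each mouse, stricter thresholds, a robust fit, a fit of 3 groups, 1 control group, only the mice compared, a choroid plexus covariate, and each mouse left out in turn. Python 3.11.15 with matplotlib 3.10.9 was used for figures. Genes at 0 counts allow up to 3, and the totals of 19743388 to 27254655 counts set the precision.

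Values were given for channel genes past the threshold, the 10 with the smallest p, the 2 highest per length in each of 8 subfamilies, and those failing the filter, by count range. Cacng2, Cacng5, Cacnb2 and Hcn4 were chosen after their values were seen, and other genes are named in counts and ranges. Some members are counted in the totals but not reported here by name. The members, gene lists and naming rule were chosen with earlier results of these data known.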

Additional observations from a re-analysis of the deposited data

Results flagged for a closer look

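Of 70 groups tested (SAH and control for each of 35 channel genes), 6 held a mouse far from the others of its group, measured as the share of the group's range of log2 CPM that separates it from its neighbour. Chance gives about 1 in 20 groups. SAH mouse 3 accounted for 3 of the 6: it was the lowest SAH mouse in Cacna1i (0.874) and Scn2b (0.836), and the highest in Cacng5 (0.868). Among the control mice, Sham mouse 5 was lowest in Cacng5 (0.729), Sham mouse 6 highest in Hcn2 (0.749) and Sham mouse 7 lowest in Scn9a (0.629).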

How the results depend on the processing

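The count of channel genes called lower in SAH than in control was 1 (Hcn2) and became 0 at adjusted p under 0.05 or 0.01, with Sham or Naive mice alone as control, and with the choroid plexus covariate; leaving out single mice gave 0 to 2. It was 0 without SAH mouse 3, SAH mouse 4, Naive mouse 10 or Sham mouse 6, and 2 without SAH mouse 1 (Hcn2 and Scn2b) or SAH mouse 2 (Hcn2 and Hcn4). No setting called a channel gene higher. Lower calls went from 0 to 1 with DESeq2 in SAH against Sham and in SAH against Naive; with single mice left out they were 0 to 1 against Sham (Hcn2 without SAH mouse 1) and 0 to 2 against Naive (Hcn2 without SAH mouse 1; Cacna1g and Hcn4 without SAH mouse 2). The median log2 fold change of SAH against control, −0.023, was −0.039 to 0.0024 over the settings and −0.044 to −0.012 with single mice left out. The pairwise medians with single mice left out ran from −0.019 to 0.025 (SAH against Sham), −0.090 to −0.039 (SAH against Naive) and −0.087 to −0.039 (Sham against Naive). The median RPKM, 9.96, was 9.95 with library size alone. Estimates near 0 changed sign: with Sham alone, Cacng8 (−0.016), Cacnb3 (−0.0090), Scn8a (0.052) and Cacng2 (0.074); with Naive alone, Cacnb1 (0.025) and Cacna1h (−0.0045); with the covariate, Scn8a (0.013), Cacnb1 (0.0053), Cacna1h (−0.00046) and Cacng2 (0.015); with no filter, Cacng8 (−0.00085). With single mice left out, sign changes gave ranges of −0.024 to 0.029 (Cacng8), −0.017 to 0.064 (Cacnb3), −0.025 to 0.028 (Scn8a), −0.043 to 0.0090 (Cacnb1), −0.038 to 0.011 (Cacna2d3), −0.0036 to 0.10 (Cacna1h), −0.050 to 0.0034 (Cacng2), −0.12 to 0.31 (Cacng5) and −0.013 to 0.18 (Cacnb2); the last 2 reversed without SAH mouse 3. The causes were not tested. No paired analysis was possible because each mouse has a number of its own.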
